A study of Mus musculus with 28 samples.

Results

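The T-cell receptor gamma locus of the mouse lies on chromosome 13, from 19178042 to 19356476 on the build GRCm38, a span of 178 kb. Its DNA copy number was followed through 10 genes, Tcrg-V1 to Tcrg-V7 with Tcrg-C1, Tcrg-C2 and Tcrg-C4, out of 47038 autosomal genes in the RefSeq annotation of the same build. They were chosen as the V and C genes of that span. All 10 were matched through the annotation's synonyms, and each symbol reads Trg in place of Tcrg-, so that Tcrg-V6 is Trgv6. The annotation puts 5 more genes of the locus in the span, the J genes Trgj1 to Trgj4 and the C gene Trgc3.

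Sequencing of the exome, the captured coding part of the genome, gave copy number segments for 24 mouse tumours taken at end point. The groups were 7 AD thymic lymphomas, 7 RP thymic lymphomas, 5 AD sarcomas and 5 RP sarcomas. AD mice had the genotype p53 AD/-, in which the only p53 protein is dimeric, and RP mice had p53 RP/-, in which it is monomeric, so that every tumour also carried a null p53 allele from the germline. Strain background was mixed, 50% BALB/C - 50% C57BL6, and the series asks how genomic alterations compare between the dimeric and the monomeric form in each tumour type. Thymic lymphoma is a tumour of developing T cells, and sarcoma is a tumour of connective tissue. Segments of the T-cell receptor alpha and delta locus, which T cells rearrange, were lost in 14 of 14 tumours labelled thymic lymphoma and in 1 of 10 labelled sarcoma. Each tumour's title carries its own number, and 4 ear samples share a number with a tumour, so each tumour was taken as 1 animal.

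A T cell builds the gamma chain of its receptor by cutting the DNA beside a V gene and beside a J gene and joining the ends, with the RAG recombinase and the end joining proteins. The DNA that lay between them is usually lost from the chromosome as a circle. The mouse locus is a row of clusters, each with its own V, J and C genes: Trgv7, Trgv4, Trgv6 and Trgv5 stand before Trgj1 and Trgc1, while Trgv3, Trgv2 and Trgv1 belong to the clusters of Trgc3, Trgc2 and Trgc4. Many T cells that go on to use the alpha and beta chains have also rearranged a gamma gene on the way.

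Each value below is a segment's mean log2 copy ratio minus the median of chromosome 13 in the same tumour, called the relative log2. Subtracting that median removes loss or gain of the whole chromosome. A relative log2 of -1 is 50% of the chromosome's level, and a gene was counted as lost at -0.3 or below. The chromosome 13 median itself was between -0.78 and -0.13 in AD and between -0.59 and -0.07 in RP thymic lymphomas. It was between -0.15 and -0.06 in AD sarcomas and between -0.13 and -0.04 in RP sarcomas. Neither the comparison DNA nor the read depth is stated in the labels, and admixed normal cells bring each value nearer to 0. A tumour was cut into 106 to 517 segments in thymic lymphomas and into 59 to 152 in sarcomas. Totals of autosomal markers, which are the positions whose signal was measured, did not overlap between AD (204845 to 204849) and RP (204917 to 204922) thymic lymphomas, or between AD (205075 to 205076) and RP (205073 to 205074) sarcomas. Group and any processing that went with those totals cannot be told apart.

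Trgv6 was lost in 4 of 7 AD and 6 of 7 RP thymic lymphomas and Trgv5 in 3 of 7 AD and 6 of 7 RP, and no sarcoma had lost a gene of the locus. At least 1 of the 10 genes was lost in 4 of 7 AD thymic lymphomas and 6 of 7 RP thymic lymphomas, against 0 of 5 AD sarcomas and 0 of 5 RP sarcomas. Over both genotypes, Trgv6 was lost in 10 thymic lymphomas, Trgv5 in 9, Trgv2 and Trgv1 in 2 each, Trgv7, Trgv4, Trgc2 and Trgc4 in 1 each, and Trgc1 and Trgv3 in 0. Across all autosomal genes, 9.29% were lost in at least 1 thymic lymphoma and 0.629% in at least 1 sarcoma. The constant gene Trgc1 and the genes of the next cluster thus stayed at the level of the chromosome in tumours where the V genes before them did not.

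**Figure D1:**
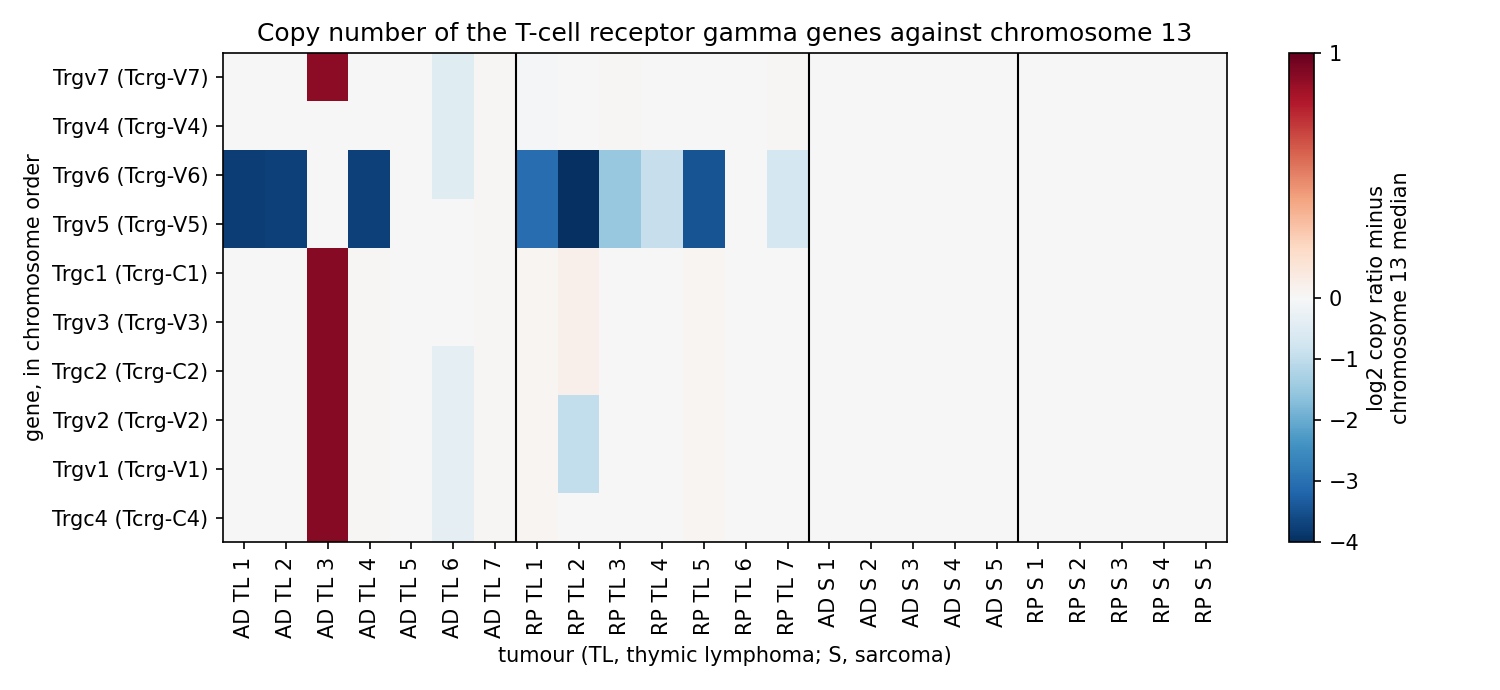
Relative log2 copy ratio (colour, the segment value minus the chromosome 13 median) of the 10 genes, in chromosome order from top to bottom, in each of 24 tumours. Blue cells, for loss, gather at Trgv6 and Trgv5 in thymic lymphomas, with the lowest at -3.995. The 7 red cells of AD thymic lymphoma 3 stand at 0.89 to 0.91, and every sarcoma is within 0.01 of 0.

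Trgv6 and Trgv5 shared 1 segment with the same ends in 9 thymic lymphomas, 3 AD and 6 RP. It ran from the first marker of Trgv6 at 19190368 to the last marker of Trgv5 at 19192428, which is 2.06 kb with 4 markers. In all 9, the last retained marker before it was at 19185200 inside Trgv4, and the first retained marker after it was at 19210343, the start of Trgj1. The lost stretch therefore measured at least 2.06 kb and at most 25.1 kb, and the exome had no marker in the 5.17 kb before the segment or the 17.9 kb after it. The J gene next to the loss and the V gene on its other side were both retained. Equal ends mark equal sets of markers and do not show equal breakpoints. Among autosomal segments of at most 50 markers, this was the one that most thymic lymphomas shared with both ends alike. The next was shared by 6 thymic lymphomas and 3 sarcomas, and it was a gain elsewhere on chromosome 13.

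**Figure D2:**
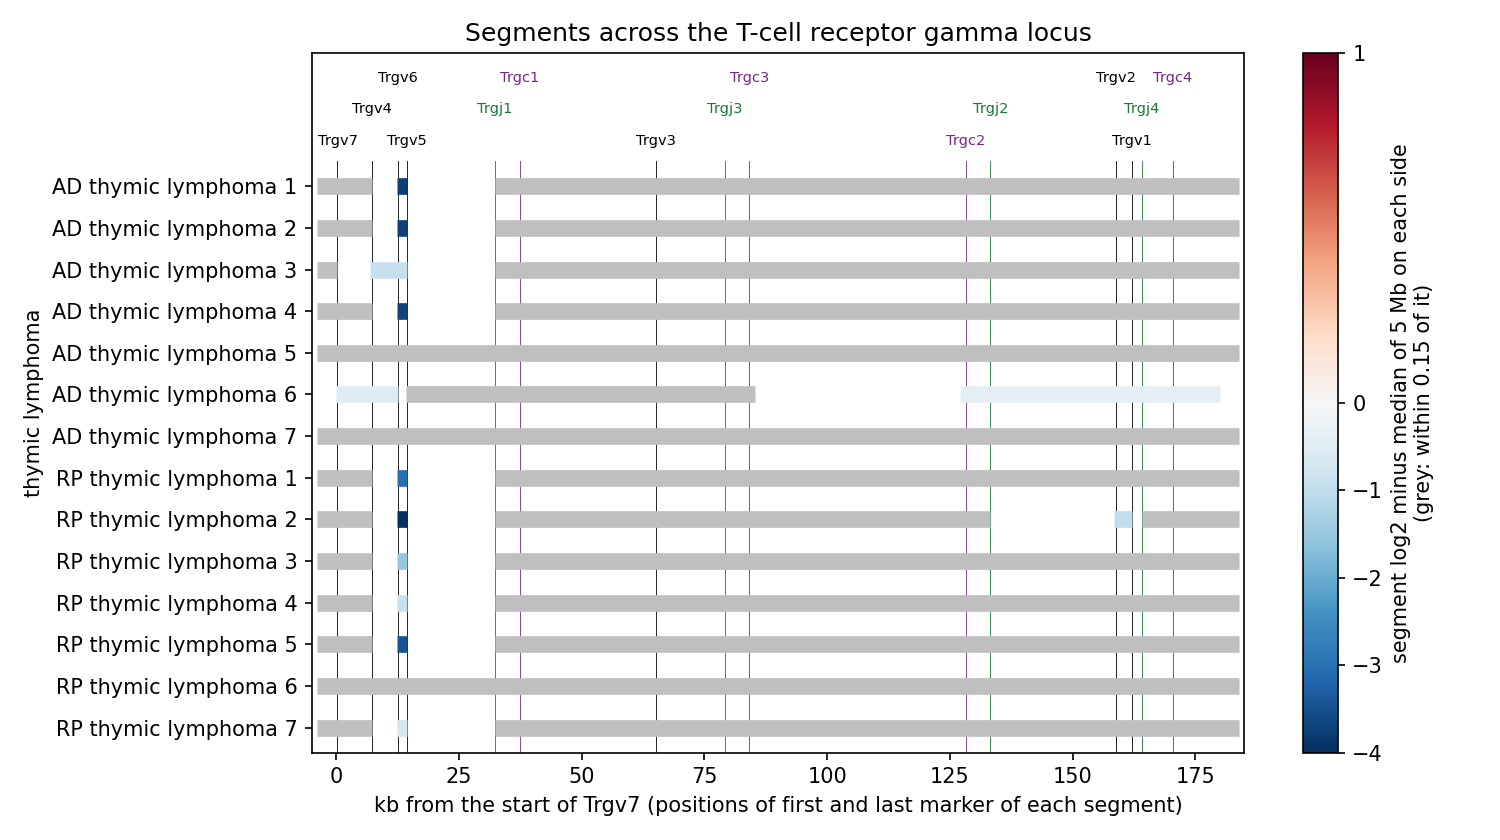
Segments across the locus in the 14 thymic lymphomas, placed by distance in kb from the start of Trgv7 and coloured by log2 minus the median of the 5 Mb on each side. Grey is within 0.15 of that median, and gaps hold no marker. Gene names are black for V, green for J and purple for C genes. The short dark block at 12 to 14 kb recurs in 9 tumours, AD thymic lymphoma 3 has a longer block that also takes in Trgv4, and RP thymic lymphoma 2 has another block over Trgv2 and Trgv1.

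Trgv6, a V gene of the early fetal thymus that is used by gamma delta T cells of mucosal tissue, had a relative log2 of -3.76, -3.74, -0.03, -3.72, 0, -0.49 and 0.01 in AD thymic lymphomas 1 to 7. In RP thymic lymphomas 1 to 7 it had -3.05, -3.995, -1.53, -0.91, -3.44, 0 and -0.71. In AD sarcomas it had 0, -0.01, 0, 0 and 0, and in RP sarcomas -0.01, 0, 0, 0 and 0. Against the chromosome 13 median, the AD thymic lymphomas were either near -3.7 or above -0.5. That gap depends on the level subtracted. Against the median of the 5 Mb on each side, AD thymic lymphoma 3 was at -0.92, inside the gap. The RP thymic lymphomas ran from -3.995 to 0 against the chromosome 13 median, and the genotypes overlapped. As a share of the chromosome 13 level, the recurrent segment ran from 6.27% in RP thymic lymphoma 2 to 61.0% in RP thymic lymphoma 7. It was below the 50% level in all 3 AD tumours that had it and in 4 of the 6 RP tumours.

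Trgv5, whose product marks the T cells of the mouse epidermis, took the same values as Trgv6 in 13 of the 14 thymic lymphomas, since both sat in one segment. The exception was AD thymic lymphoma 6, where a boundary fell between them and Trgv5 had -0.02 while Trgv6 had -0.49. Among AD thymic lymphomas the median of Trgv5 was -0.03, against -1.53 among RP thymic lymphomas. That AD median was the value of AD thymic lymphoma 3, and it depends on the level subtracted. Against the median of the 5 Mb on each side, Trgv5 in this tumour was at -0.92.

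**Figure D3:**
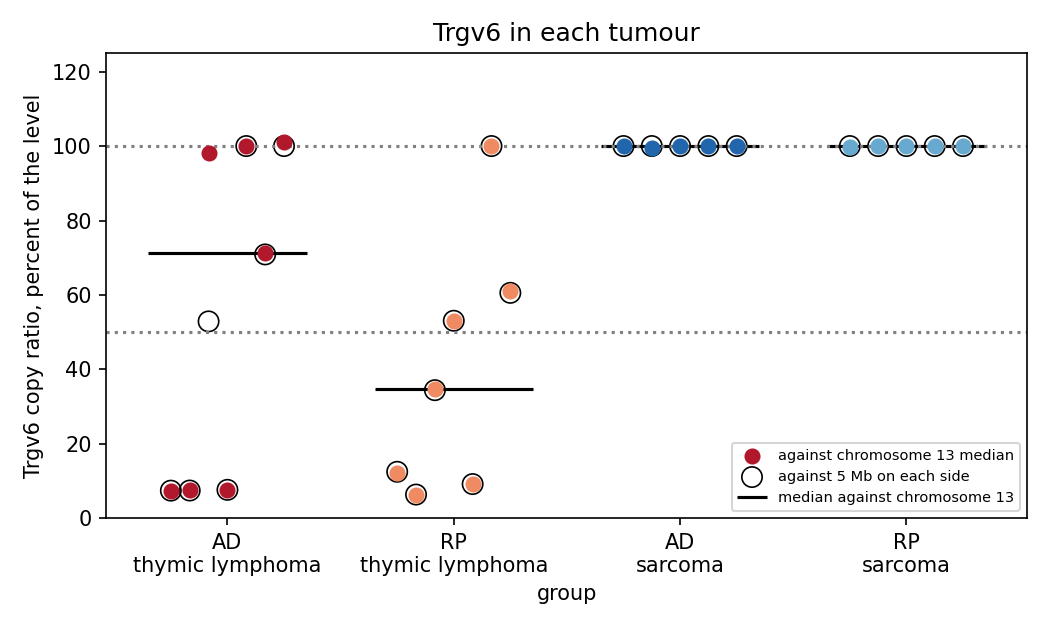
Trgv6 copy ratio in each tumour as a percent of the chromosome 13 level (filled points) and of the median of the 5 Mb on each side (open circles), with the group median against chromosome 13 as a bar. Dotted lines stand at 50% and 100%. Medians were 71.1% in AD thymic lymphomas, 34.7% in RP thymic lymphomas and 100% in each sarcoma group, and only AD thymic lymphoma 3 moves clearly between both levels.

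Trgv4 and Trgv7, the V genes farthest from Trgj1, were mostly retained. Trgv4, common in the gamma delta T cells of adult lymphoid tissue, had a lowest, median and highest relative log2 of -0.49, -0.01 and 0.01 among AD and -0.05, 0 and 0.01 among RP thymic lymphomas. Trgv7, typical of gamma delta T cells of the gut lining, had -0.49, 0 and 0.89 among AD and -0.05, 0 and 0.01 among RP thymic lymphomas. Both genes were within 0.01 of 0 in all 10 sarcomas. The low values were from AD thymic lymphoma 6, and the high value of Trgv7 was from AD thymic lymphoma 3.

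AD thymic lymphoma 3 shows how the subtracted level sets a call. Its chromosome 13 median was -0.78, but the locus lay in a retained part of the chromosome, where the median of the 5 Mb on each side was 0.11. A segment of 6 markers from 19184981 to 19192428 covered Trgv4, Trgv6 and Trgv5 at a deposited log2 of -0.81, between retained Trgv7 and retained Trgj1. That segment was at -0.03 against the whole chromosome and at -0.92, or 52.9%, against the 5 Mb on each side. The other 7 genes were at 0.89 to 0.91 against the chromosome. Counted against the 5 Mb on each side, 5 of 7 AD and 6 of 7 RP thymic lymphomas had lost a gene of the locus, with Trgv6 lost in 11 tumours and Trgv5 in 10, while 6.93% of all genes were lost in at least 1 thymic lymphoma.

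AD thymic lymphoma 6 had a lower level at 7 of the 10 genes. Trgv7, Trgv4 and Trgv6 were at -0.49 in a segment of 6 markers that ended inside Trgv6 at 19190612. Trgv5, Trgj1, Trgc1, Trgv3, Trgj3 and Trgc3 were at -0.02 in a segment of 12 markers. Trgc2, Trgv2, Trgv1 and Trgc4 were at -0.40 in a segment of 14 markers that ended at 19358057, inside the neighbouring gene Stard3nl. This tumour also had 93 short losses over the autosomes (at most 10 markers and 50 kb), and AD thymic lymphoma 7 had 169, against 11 to 37 in the 9 tumours with the recurrent segment. The part of that fragmentation in the values of AD thymic lymphoma 6 was not tested.

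The genes of the later clusters changed in few tumours. Trgv2 and Trgv1, the V genes joined to Trgj2 and Trgj4, lay in a segment of 4 markers from 19336573 to 19340151 in RP thymic lymphoma 2, at -0.99 or 50.2% of the chromosome 13 level. Trgj2 before it and Trgj4 after it were retained, and the same tumour carried the recurrent loss of Trgv6 and Trgv5 at 6.27%. Over the group, Trgv2 and Trgv1 had a lowest, median and highest value of -0.40, 0 and 0.91 among AD and -0.99, 0 and 0.02 among RP thymic lymphomas. Trgc1 and Trgv3 ran from -0.02 to 0.91 in AD thymic lymphomas and from -0.01 to 0.05 in RP thymic lymphomas. Trgc2 and Trgc4, which encode constant regions, went no lower than -0.40 among AD and -0.01 among RP thymic lymphomas. All sarcoma values of these genes were within 0.01 of 0.

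AD thymic lymphomas 5 and 7 and RP thymic lymphoma 6 had 1 unbroken segment over the whole locus, as every sarcoma had. Their relative log2 was 0, 0.01 and 0. In these 3 tumours the lowest segment of the T-cell receptor beta locus on chromosome 6 was at -1.90, -2.64 and -1.92 against its own chromosome. The lowest segment of the alpha and delta locus on chromosome 14 was at -2.36, -3.47 and -2.02. Tumours without a measured change at gamma thus had low segments at the other receptor loci.

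In the test across all autosomal genes, thymic lymphomas had a lower Trgv6 than sarcomas by a mean within-genotype difference of -1.81 in relative log2, and Trgv5 differed by -1.78. Unadjusted p was 0.00264 for Trgv6 and 0.00333 for Trgv5 in a two-sided permutation test of 100000 resamples within genotype. The Benjamini-Hochberg adjusted p was 0.171 and 0.181 over 47038 genes, so neither passed at 0.05, and 0 of the 10 genes passed. The test called 62 genes, 0.132% of all, of which 60 were on chromosome 14 and 2 on chromosome 6, and 10.8% of genes had an unadjusted p under 0.05. On the count of tumours with a loss, chosen after seeing the data, Trgv6 was lost in 10 of 14 thymic lymphomas, against 0 of 10 sarcomas (Fisher's exact test, two-sided, p = 0.000582, adjusted p = 0.203). That test called 0.187% of genes. Counted against the 5 Mb on each side it was 11 of 14, against 0 of 10 (Fisher's exact p = 0.000151, adjusted p = 0.0579), and 0.23% of genes were called. The call depends on the level subtracted: against the autosomal median, which leaves loss of chromosome 13 in the value, Trgv6 differed by -2.06 (permutation test, adjusted p = 0.00706), and with no subtraction by -2.15 (adjusted p = 0.00353). Passing was common at these levels, where the same test called 10274 and 19141 of the 47038 genes.

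Within genotypes, Trgv6 had a mean relative log2 of -1.68 ± 1.94 in AD thymic lymphomas (SD, n = 7) and of 0 in AD sarcomas (n = 5). The difference was -1.67, with a 95% interval of -3.73 to 0.01 from the exact permutation test (p = 0.072, adjusted p = 1). The mean was -1.95 ± 1.54 in RP thymic lymphomas (SD, n = 7) and 0 in RP sarcomas (n = 5), a difference of -1.95 with an interval of -3.51 to -0.36 (exact permutation p = 0.0215, adjusted p = 0.481). These intervals, and those between genotypes below, assume a shift common to all tumours of a group. The thymic lymphoma values ranged from deep loss to none, so the intervals are approximate. Over all genes, 0% passed the adjusted threshold of the exact permutation test against the chromosome median in either genotype, while 3.52% in AD and 9.24% in RP had an unadjusted p under 0.05. On the same values limma called 18 genes in AD and 0 in RP, and with no subtraction the permutation test called 3893 genes in AD and 17983 in RP. The difference between these contrasts was 0.27 for Trgv6 (permutation p = 0.721, adjusted p = 1), and 0% of genes passed that test.

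Dimeric and monomeric p53 were not told apart at the locus. AD minus RP thymic lymphomas gave 0.27 for Trgv6, with a 95% interval of -1.76 to 2.34 (exact permutation test over 3432 splits, p = 0.723, adjusted p = 1). For Trgv5 it was 0.34, with an interval of -1.74 to 2.46 (exact permutation p = 0.688, adjusted p = 1). These intervals reach past a 2-fold change in either direction, so a genotype difference of that size was not detectable with 7 tumours a group. The difference for Trgv6 turned negative, down to -0.07, when AD thymic lymphoma 3, 5 or 7 or RP thymic lymphoma 2 was left out, and was -0.30 without AD thymic lymphomas 6 and 7. Over all genes 0% passed, with 3.65% at an unadjusted p under 0.05. By count, Trgv6 was lost in 4 of 7 AD and 6 of 7 RP thymic lymphomas (Fisher's exact test, p = 0.559), and 0% of genes passed that test against either level. In sarcomas the difference was 0 for all 10 genes (exact permutation p = 1), and 0% of all genes passed. With 252 splits the smallest p of that exact permutation test was 0.00794. The adjusted test could therefore not call a few genes alone, and its 0% says little.

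Genes lost in at least 9 thymic lymphomas and in 0 sarcomas made up 0.33% of all genes against the chromosome median and 0.334% against the 5 Mb on each side. The cutoff of 9 equals the count for Trgv5 and lies below that for Trgv6, so both were certain to be included. All 155 of them by the chromosome median lay in antigen receptor loci: 2 at gamma (Trgv6 and Trgv5), 36 at beta, 114 at alpha and delta, and 3 at the immunoglobulin heavy locus. The immunoglobulin kappa locus, which B cells rearrange, had 0. Trgv6 and Trgv5 were at or below -3 in 6 thymic lymphomas, 3 AD and 3 RP. As many or more thymic lymphomas were at that level for 0.162% of all genes, and these 76 genes lay at gamma (2), beta (17) and alpha and delta (57). This count was taken from Trgv6 itself, so the gamma genes were again included by construction. By both of these counts, against the chromosome median, every gene lay in a locus that lymphocytes rearrange.

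By group median, the lowest segment was less deep at gamma than at the other T-cell receptor loci. The median of the lowest segment was -0.49 at gamma, -2.64 at beta and -3.50 at alpha and delta in AD thymic lymphomas, and -1.53, -3.77 and -4.43 at these loci in RP thymic lymphomas. The beta locus and the alpha and delta locus were each lost somewhere in 14 of 14 thymic lymphomas, against 10 at gamma. They span more genes (53 and 202 in the annotation), so the lowest of their segments is drawn from more, and the depths were set side by side with no test. In sarcomas, RP sarcoma 3 had a beta segment at -0.35 and AD sarcoma 5 an alpha and delta segment at -0.80, while no gamma segment was below -0.01.

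**Figure D4:**
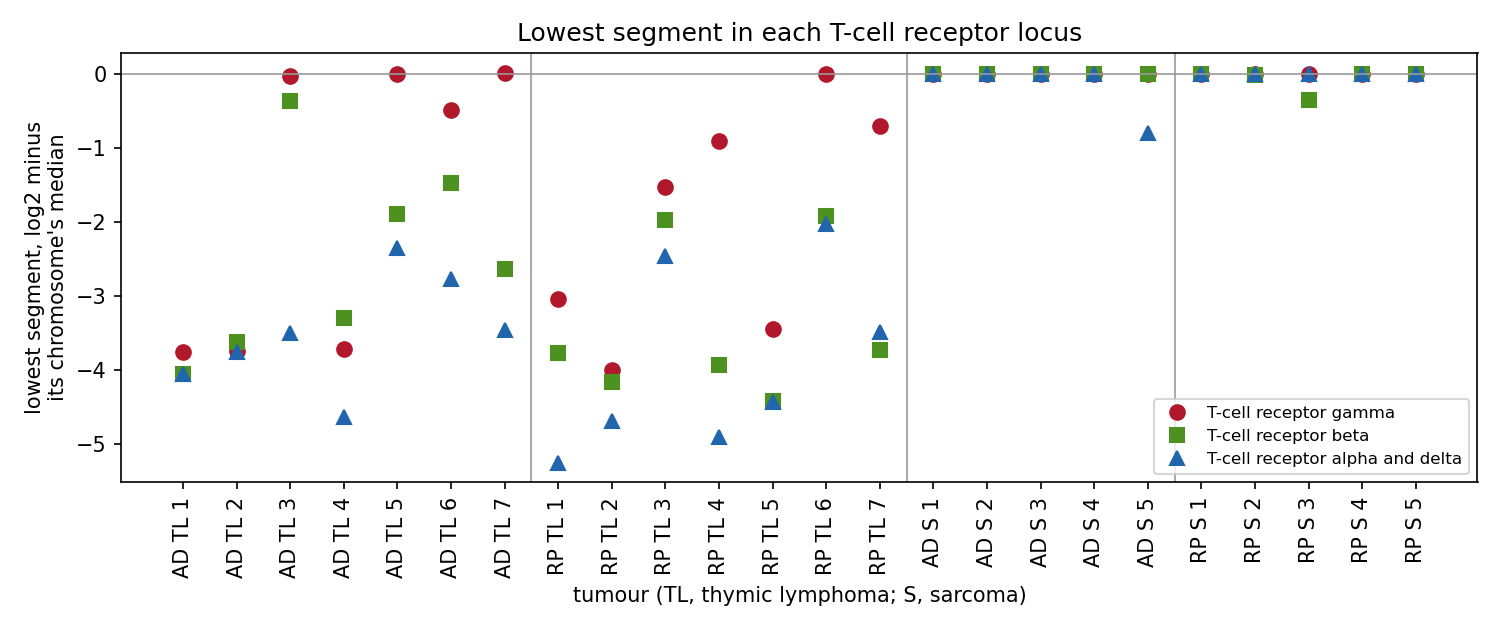
Lowest segment in the T-cell receptor gamma (circles), beta (squares) and alpha and delta (triangles) loci of each tumour, as log2 minus the median of the locus's own chromosome. In 10 of 14 thymic lymphomas gamma is at -0.49 or below. AD thymic lymphomas 3, 5 and 7 and RP thymic lymphoma 6 stay near 0 at gamma with alpha and delta at -2.02 or below, and nearly all sarcoma points lie at 0.

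Across the 24 tumours, the genes outside the locus whose relative log2 was most like that of Trgv6 were Trbj1-4 (Pearson r = 0.75), Gm30275 (0.74), Tcrd (0.73), Trbj1-1 (0.71) and Traj55 (0.70). They lie in the beta or the alpha and delta locus, and tumour type is shared by all of these values. Within the 14 thymic lymphomas alone the r of these genes was 0.49 to 0.66. For the value averaged over the whole span, the most alike were the chromosome 13 genes Gm8598, Gm40657, Gtpbp4, Gng4 and Lyst, each with r = 0.97. That likeness rests on AD thymic lymphoma 3, without which r was 0.05 to 0.13.

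Neighbouring genes kept the level of the chromosome. Rala, Yae1d1, Vps41 and Amph on one side and Stard3nl, Epdr1, Sfrp4, Nme8 and Gpr141b on the other were lost in 0 of 24 tumours. Their relative log2 ran from -0.05 to 0.91 in AD thymic lymphomas, with the high end in AD thymic lymphoma 3, and from -0.05 to 0.02 in RP thymic lymphomas. In sarcomas they were within 0.01 of 0. The losses at gamma thus ended inside the span or, in AD thymic lymphoma 6, just beyond it.

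Among genes that act on the locus, the share with a copy number change was near that of all genes. Of 16 genes of V(D)J recombination and end joining, 19 regulators of the opening and rearrangement of the locus, and 10 genes of the receptor complex and its first signals, 0 passed the test between tumour types or between genotypes in either direction. Between genotypes, the exact permutation test could not call a few genes alone. The median difference of the listed genes between thymic lymphomas and sarcomas was within 0.01 of 0 in each list, as it was over all genes. Rag1 and Rag2, which encode the recombinase, stayed between -0.02 and 0.06 in all 24 tumours. No gain or loss at the 0.3 cutoff was seen in any tumour for 14 of the 16, 13 of the 19 and 8 of the 10 genes. That is 35 of 45 listed genes, or 77.8%, against 74.5% of all genes. Of the 45, 4 were lost in at least 1 thymic lymphoma, or 8.89%, against 9.29% of all genes. Among the exceptions, Prkdc, the kinase that holds broken ends for joining, was at -1.23 in AD thymic lymphoma 4 and was gained in 2 RP sarcomas, at up to 0.36. Zbtb16, the transcription factor PLZF of innate-like T cells, was at 1.94 in AD thymic lymphoma 5. Cd3d, a chain of the receptor complex, was lost in 2 AD thymic lymphomas, with its lowest value of -1.01 in AD thymic lymphoma 7. The nearby genes Cd3e and Cd3g were not lost in any tumour. Id3 was lost in AD thymic lymphoma 7 at -0.99, and Lat in AD thymic lymphoma 6 at -0.35. AD thymic lymphomas 7 and 6 were the tumours with 169 and 93 short losses. The part of that fragmentation in the values of Cd3d, Id3 and Lat was not tested. In RP thymic lymphoma 6 the transcription factor gene Myb stood at 0.46. Runx1, another such gene, reached 0.36 in RP thymic lymphoma 3.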

How the data were processed

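The deposited files hold 1 segment table per tumour with a chromosome, start, end, number of markers and segment mean, per the file headers. The segment mean is taken as a log2 copy ratio made by the authors, and the marker number is a count of positions, not reads. Trim Galore (0.6.5), the aligner BWA (0.7.17), the toolkit GATK (4.1.0.0) and the build GRCm38 are named in the submitters' processing notes, with 150 nt reads in the labels. The 4 ear samples had no table here and were not used. Both ends of a segment are marker starts counted from 0: of 2825 distinct autosomal segments, 263 begin 1 base before a RefSeq gene start, so 1 was added to each end.

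A gene took the mean of its overlapping segments, weighted by overlap, or the nearest segment, minus its chromosome's length-weighted median. Permutation tests, with Benjamini-Hochberg adjustment over 47038 autosomal genes, used scipy 1.17.1 and pandas 2.3.3 with numpy 2.4.6 under Python 3.11.15. The whole span was tested as its own RefSeq entry, Tcrg, which is among those genes. Plots used matplotlib 3.10.9. limma 3.58.1 in R 4.3.3 was an alternative. Only the permutation test of thymic lymphomas minus sarcomas over both genotypes was checked on simulated data, with values drawn from a normal distribution. The other tests and the intervals were not checked in this way. Other levels to subtract, segment weights, marker minimums, cutoffs and left-out tumours were also tried. The genes, lists and tests were chosen with earlier results of these data known. All 10 genes, the other genes of the span, the 5 nearest protein-coding genes on each side (1 of them is not reported here) and the 5 genes most like the span were named by rule, as were listed genes gained or lost in 3 or more tumours of a group (0 were). The genes most like Trgv6, the Fisher tests and the listed genes named with a gain or loss were chosen after their values were seen. The tumour counts used to set Trgv6 and Trgv5 beside all genes match the counts of those genes themselves.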

Additional observations from a re-analysis of the deposited data

Results flagged for a closer look

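Each value here is a relative log2 whose gap to the nearest tumour of its group, divided by the group's range, passed Dixon's 95% critical value. For a single set of normally distributed values chance alone passes about 1 in 20. Several genes were tried in each group, and the values were not normally distributed, so that rate does not hold here. In AD thymic lymphomas, AD thymic lymphoma 3 stood highest at 0.89 for Trgv7, at 0.91 for Trgc1 and Trgv3, at 0.91 for Trgc2, Trgv2, Trgv1 and Trgc4, and at 0.86 for the whole span. AD thymic lymphoma 6 stood lowest at -0.49 for Trgv4. In RP thymic lymphomas, RP thymic lymphoma 2 stood highest at 0.054 for Trgc1, Trgv3 and Trgc2 and lowest at -0.99 for Trgv2 and Trgv1. In sarcomas, where all values were near 0, AD sarcoma 2 stood lowest at -0.0069 and RP sarcoma 1 at -0.0056 for all 10 genes and the span. All other sarcomas were at exactly 0, so any single value off 0 would have been flagged.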

How the results depend on the processing

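No paired analysis was possible because the labels give the groups no shared replicate numbers. Over the whole span, thymic lymphomas minus sarcomas was 0.03, AD minus RP thymic lymphomas 0.10, thymic lymphomas minus sarcomas 0.08 in AD and -0.02 in RP, and the difference of these contrasts 0.10; none passed. With no subtraction these were -0.31 (past the threshold), -0.018, -0.30 and, past the threshold in RP, -0.32, with 10 of the 10 genes past in both the pooled and the RP contrast. Over all 47038 genes, 19141 passed in the pooled and 17983 in the RP contrast at this setting. It counted 7 of 7 AD thymic lymphomas as lost, and every RP thymic lymphoma as well, with Trgv6 at -0.59 or below. Against the autosomal median the first 3 contrasts were -0.22, -0.026 and -0.21, with 3 of the 10 genes past in the pooled contrast, where 10274 of all genes passed. Against the 5 Mb on each side they were -0.031, -0.040 and -0.051, and the contrast difference was -0.040. By lowest segment, the pooled and AD contrasts were -1.81 and -1.67, and with marker weights -0.47 and -0.43. Without segments of fewer than 5 markers, which removes the recurrent segment itself, the RP contrast was 0.010, lost tumours fell to 1 AD and 0 RP, and Trgv6 gave -0.067 for AD minus RP and -0.067 for the contrast difference. Leaving out 1 tumour gave the span -0.037 to 0.052 pooled, -0.032 to 0.15 for AD minus RP, -0.053 to 0.12 in AD, -0.025 to -0.017 in RP and -0.031 to 0.15 for the contrast difference, each negative end of the pooled, genotype, AD and contrast values being without AD thymic lymphoma 3. For Trgv6 it gave -0.067 to 0.62 for AD minus RP and the same for the contrast difference. Without AD thymic lymphomas 6 and 7, chosen after seeing the data, AD minus RP and the contrast difference were -0.30 for Trgv6 and Trgv5. In all 36 alternatives to the pooled test Trgv6 stayed negative, from -2.15 to -0.04, and passed in 2. Over all genes, the pooled permutation test called 62, limma 96, and the permutation test 242 with a marker-weighted chromosome median, 129 on the linear copy ratio, 10274 against the autosomal median, 19141 with no subtraction and 0 among protein-coding and gamma genes alone. Against the autosomal median it called 3079 genes in AD and 5947 in RP. The read depth is unknown, 4 markers carry the recurrent loss, and the number of tumours limits precision.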
